A study of Mus musculus with 36 samples.

Results

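The genes described here are Hoxa2, Hoxa3, Hoxa4, Hoxa5, Hoxa6 and Hoxa7, the anterior genes of the mouse HoxA cluster. They are 6 of the 50833 genes in the deposited count table, and were chosen by name. RNA was sequenced from E12.5 embryos of strain B6CBAF1, from distal forelimb (the future hand) and proximal forelimb (the future arm) of wild type (WT) embryos and of embryos with 5 alleles made by CRISPR/Cas9, that remove CTCF binding sites at the Hoxd cluster. The first allele is Del(CBS1). It is followed by Del(CBS1-2) and Del(CBS1-3), and the series ends with Del(CBS1-4) and Del(CBS1-5). Each of the 12 groups had 3 libraries, 36 in all, made from the limbs of individual embryos. The labels do not give zygosity or litter. The Hoxd cluster lies on another chromosome than HoxA.

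Hox genes encode homeodomain transcription factors that give cells their position along the body axis, and within a cluster their order on the chromosome follows the order in which they are used from head to tail. In the limb, the posterior HoxA genes are known for patterning: Hoxa11 marks the forearm segment and Hoxa13 marks the hand. The anterior genes are better known from other places. Hoxa2 specifies pharyngeal arch and hindbrain segments, Hoxa3 the thymus and parathyroid, Hoxa4 and Hoxa6 cervical and thoracic vertebrae, Hoxa5 the neck and shoulder skeleton and the lung, and Hoxa7 thoracic vertebrae. Hox proteins of these groups bind DNA together with the Pbx and Meis cofactors.

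All 6 genes lie on the minus strand of chromosome 6 (mm10, coordinates of the deposited table). Hoxa2 spans 52162417 to 52164831, Hoxa4 52189671 to 52191753, Hoxa5 52201754 to 52204587, Hoxa6 52206288 to 52208722 and Hoxa7 52214498 to 52221854. The Hoxa3 model, 52169062 to 52213115, spans Hoxa4, Hoxa5 and Hoxa6. In the GENCODE M21 annotation no exonic base of Hoxa5 or Hoxa6 is shared with another gene. Of the exonic bases, 25.4% of Hoxa3, 20.4% of Hoxa7 and 16.0% of Hoxa4 are also exonic on the opposite strand, in antisense genes that include Hoxaas3, Hoxaas2 and Gm29430. On the same strand 15.0% of Hoxa2 and 8.01% of Hoxa3 are shared with Gm28308. The counting of reads by strand is not given in the labels or headers, and the values of these 4 genes may hold reads of the overlapping genes.

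Sequences upstream of 3 members are printed because Hoxa7 had the largest mean difference between the tissues, Hoxa5 a smaller one, and Hoxa2 the most motif matches. They come from RefSeq (GRCm38.p6), which gave a promoter for 5 of the 6 members, without Hoxa4. All are on the minus strand and end at the base before the RefSeq start, except that of Hoxa7, which ends 139 bases before it, at the edge of a GENCODE M21 exon. Capitals mark matches to CCAAT, the Hox-Pbx motif TGATNNAT or the Cdx motif TTTATG, on either strand.
Hoxa7, chr6:52218712-52218823: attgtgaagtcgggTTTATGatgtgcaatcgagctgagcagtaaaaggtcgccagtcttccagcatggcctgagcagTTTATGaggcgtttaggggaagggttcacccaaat
Hoxa5, chr6:52204588-52204837: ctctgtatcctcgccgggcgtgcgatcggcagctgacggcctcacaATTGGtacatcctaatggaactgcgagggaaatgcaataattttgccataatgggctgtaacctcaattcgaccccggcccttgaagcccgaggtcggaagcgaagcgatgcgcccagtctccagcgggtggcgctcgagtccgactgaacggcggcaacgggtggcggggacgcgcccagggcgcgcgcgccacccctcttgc
Hoxa2, chr6:52164832-52165081: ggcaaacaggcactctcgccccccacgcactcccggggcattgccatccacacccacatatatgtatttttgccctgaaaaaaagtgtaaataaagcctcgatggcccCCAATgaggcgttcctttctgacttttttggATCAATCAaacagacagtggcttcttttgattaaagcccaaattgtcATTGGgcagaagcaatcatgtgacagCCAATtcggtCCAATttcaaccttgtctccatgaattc

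In the 250 bases before each start, Hoxa7 was the only one of the 5 with TTTATG, at 236 and 173 bases upstream, and 10.8% of all 32851 RefSeq promoters hold it. The RefSeq starts of Hoxa7, Hoxa3 and Hoxa6 lie inside the deposited models of these genes. The printed stretch of Hoxa5 lies within the gene models of Hoxa3, Hoxaas3 and Gm28308, and that of Hoxa2 within Gm28308. Hoxa2 had 4 matches to CCAAT, and Hoxa5 and Hoxa6 had 1 each, a motif in 33.8% of promoters. Hoxa2 also had 1 match to TGATNNAT, found in 7.68% of promoters. TATAAA (12.4% of promoters), AGGTCA (14%) and the core of the CTCF motif (7.17%) had no match in these 5 windows. No 2 of the matches overlapped. Base composition split the 5 windows: GC content was 64.8% for Hoxa3, 63.6% for Hoxa5 and 65.2% for Hoxa6, against 54.8% for Hoxa7 and 46.4% for Hoxa2, with a median over all promoters of 52.4%. CpG pairs numbered 28 in Hoxa5, 24 in Hoxa6 and 18 in Hoxa3, but 7 in Hoxa7 and 6 in Hoxa2. A match is a run of letters in a window, and binding was not measured here.

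Library totals ran from 11062069 to 17727891 counts, and the members were low in all of them. Over the 18 distal libraries the median count was 220.5 for Hoxa3, 183 for Hoxa5, 144.5 for Hoxa7, 61 for Hoxa6, 47 for Hoxa2 and 18.5 for Hoxa4. Hoxa4 counts ran from 13 to 33 in distal and from 14 to 52 in proximal libraries, so its values are the least precise of the 6. The tissue labels were checked against known markers. The summed level of 13 distal limb genes ran from 3486 to 4163 CPM (counts scaled to library size) in distal and from 760 to 1362 CPM in proximal libraries. That of 13 proximal limb genes ran from 357 to 455 CPM against 934 to 1541 CPM.

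Per length of transcript, the deposited FPKM values (scaled to transcript length and depth) put Hoxa5, Hoxa7, Hoxa3 and Hoxa6 close together in distal WT tissue. The means were 4.62 ± 0.94 for Hoxa5, 3.93 ± 0.88 for Hoxa7, 3.90 ± 0.78 for Hoxa3 and 3.44 ± 0.43 FPKM for Hoxa6 (SD, n = 3), and the libraries of each neighbour in this order overlapped. Hoxa2 was lower, at 1.28 ± 0.41 FPKM, and Hoxa4 lowest, at 0.55 ± 0.11 FPKM, each apart from the gene above it. In proximal WT tissue Hoxa7 stood apart at the top, with 7.71 ± 0.58 FPKM. Hoxa5 and Hoxa3 followed, both at 5.51 FPKM (SD 1.197 and 1.83), and overlapped with each other, as Hoxa3 did with Hoxa6 at 3.74 ± 0.79 FPKM. Hoxa2 at 1.79 ± 0.37 and Hoxa4 at 0.87 ± 0.20 FPKM again stood apart below. Neighbours on the chromosome thus differed in level: Hoxa4 lies between Hoxa3 and Hoxa5, and both of these were higher. The next posterior gene, Hoxa9, was higher than all 6, with a median of 28.2 FPKM in distal and 30.6 FPKM in proximal libraries.

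**Figure D1:**
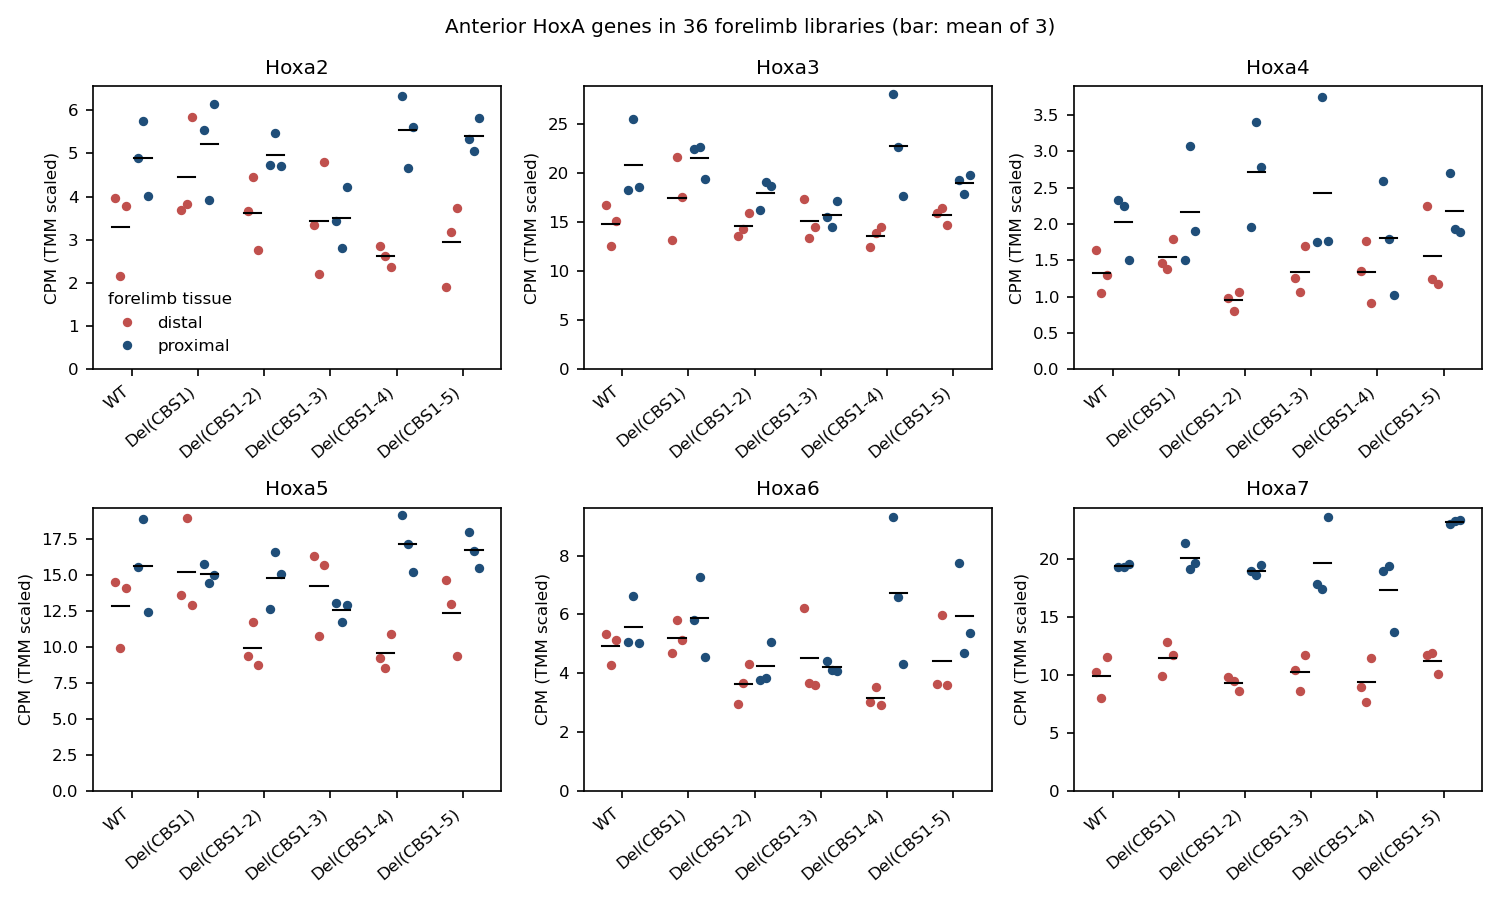
Level of each member in CPM (y axis, TMM scaled, from 0) in the 3 libraries of each genotype (x axis), with distal libraries in red, proximal in blue and a bar at the mean of 3. The distal and proximal points of Hoxa7 do not overlap in any of the 6 genotypes, while those of the other genes overlap in at least 2 (45.5% to 58.3% of all genes tested in a genotype do not overlap).

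Hoxa7 and Hoxa3 were lower in distal than in proximal tissue in WT, and the other 4 members did not pass the test. In WT, Hoxa7 had 10.2, 7.97 and 11.5 CPM in the 3 distal libraries and 19.3, 19.3 and 19.5 CPM in the 3 proximal ones. The lowest proximal library was thus well above the highest distal one. The log2 difference of distal from proximal was -0.97 ± 0.14 (SE; edgeR's quasi-likelihood test, adjusted p = 0.00122). Hoxa3 had 16.8, 12.6 and 15.1 CPM in distal and 18.3, 25.5 and 18.5 CPM in proximal WT libraries, which do not overlap either (log2 -0.49 ± 0.16, edgeR adjusted p = 0.0475). Proximal library 2 was high in Hoxa3, and the call was lost without any 1 of the 6 libraries (edgeR adjusted p 0.0514 to 0.154) and with limma on FPKM (adjusted p = 0.24). The other 4 were Hoxa2 at -0.57, Hoxa4 at -0.61, Hoxa5 at -0.29 and Hoxa6 at -0.19 on the log2 scale. So 2 of 6 members were called in WT, both lower in distal tissue, against 30.7% of all 14918 genes tested (17.1% lower). The share is near that of all genes. The median log2 difference of the 6 was -0.53, and over all genes 0.00494. In bulk tissue, fewer cells of a type and less RNA per cell cannot be told apart.

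The lower distal level of Hoxa7 recurred in each mutant line. In Del(CBS1) it had 9.86, 12.8 and 11.7 CPM in distal and 21.4, 19.1 and 19.7 CPM in proximal libraries (log2 -0.81, edgeR adjusted p = 0.000292). In Del(CBS1-2) the distal values were 9.78, 9.47 and 8.57 CPM and the proximal ones 18.9, 18.6 and 19.4 CPM (log2 -1.04, edgeR adjusted p = 7.64e-07). In Del(CBS1-3) they were 10.4, 8.63 and 11.7 against 17.8, 17.4 and 23.6 CPM (log2 -0.95, edgeR adjusted p = 0.00193). The 6 genotypes have no libraries in common, and in each the 3 distal values lay below the 3 proximal ones, as they did for 23.1% to 28.8% of all genes in a genotype. Del(CBS1-4) had distal values of 8.93, 7.63 and 11.4 CPM and proximal values of 18.9, 19.4 and 13.7 CPM (log2 -0.90, edgeR adjusted p = 0.00276). Del(CBS1-5) had 11.7, 11.9 and 10.03 CPM against 22.97, 23.2 and 23.3 CPM (log2 -1.06, edgeR adjusted p = 1.94e-05). Being called lower in distal tissue in each of the 6 genotypes held for 12.1% of the 14078 genes tested in all of them, and for 1 member, Hoxa7.

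The other members passed in some genotypes and not in others. Hoxa3 was also called in Del(CBS1-2) (log2 -0.31), Del(CBS1-4) (-0.75) and Del(CBS1-5) (-0.28, edgeR adjusted p = 0.0473, and 0.0535 with same-numbered tissues paired). Hoxa5 was called in Del(CBS1-2) (-0.58), Del(CBS1-4) (-0.86) and Del(CBS1-5) (-0.45). Hoxa2 was called in Del(CBS1-4) (-1.09) and Del(CBS1-5) (-0.89), and in Del(CBS1-2) with the pairing (edgeR adjusted p = 0.0331, against 0.0716 without). Hoxa6 was called in Del(CBS1-4) only (-1.10), and Hoxa4 in Del(CBS1-2) only (-1.53), where its distal libraries had 0.985, 0.799 and 1.06 CPM and its proximal ones 1.96, 3.41 and 2.79 CPM. The counts of members called were 1 in Del(CBS1) against 36.1% of all genes (19.7% lower), 4 in Del(CBS1-2) against 50.7% (25.9% lower), 1 in Del(CBS1-3) against 34.2% (18.3% lower), 5 in Del(CBS1-4) against 38.6% (20.8% lower) and 4 in Del(CBS1-5) against 40.4% (21% lower). All calls of members were lower in distal tissue. Some were near the threshold: Hoxa3 lost its call in Del(CBS1-5) without any 1 of the 6 libraries (edgeR adjusted p 0.0545 to 0.128), and in Del(CBS1-2) without distal replicate 1 or 2 or proximal replicate 2 or 3 (up to 0.0827). Hoxa5 lost it in Del(CBS1-5) without any 1 library but distal replicate 1 (up to 0.129), and Hoxa3 gained it in Del(CBS1) without distal replicate 2 (0.0201). Over the 36 comparisons of 6 genes in 6 genotypes, 33 values were below 0 and 17 were called, and DESeq2 called 16 and limma on FPKM 14. The 6 genes of a genotype come from the same 6 libraries, so these values are not independent. The median over all genes in a genotype ran from -0.00256 to 0.00516.

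**Figure D2:**
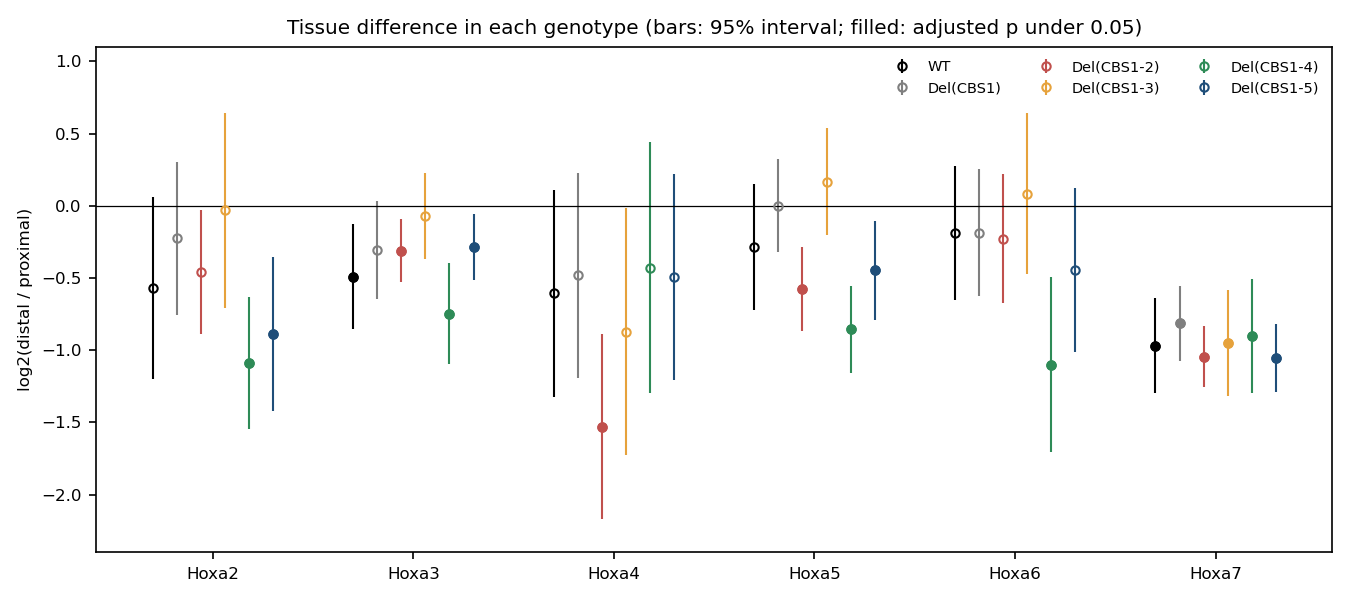
Log2 difference of distal from proximal tissue (y axis) for each member (x axis) in each of 6 genotypes (colours), with 95% intervals from edgeR and filled points where the adjusted p is under 0.05. The 6 values of Hoxa7 lie between -1.06 and -0.81 and all are filled, while those of Hoxa5 run from -0.86 to 0.17.

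Over all 36 libraries, with the 6 genotypes weighted equally, each member was lower in distal tissue. This fit was added after the values were seen. The log2 differences were -0.95 ± 0.06 for Hoxa7, -0.72 ± 0.15 for Hoxa4, -0.53 ± 0.11 for Hoxa2, -0.36 ± 0.06 for Hoxa3, -0.33 ± 0.10 for Hoxa6 and -0.32 ± 0.07 for Hoxa5 (SE; edgeR adjusted p from 4.12e-15 to 0.00516). With this many libraries 68.6% of 16292 genes were called, 34.2% as lower, so 6 called of 6 is to be read against that share. Counted by embryo, with the tissues of the same number paired, Hoxa4 and Hoxa7 were lower in the distal library in 18 of 18 embryos. The log2 differences of Hoxa4 came as near to 0 as -0.02 (median -0.54), and those of Hoxa7 as near as -0.26 (median -0.97). The share of all genes with such a count was not computed. Hoxa2 and Hoxa3 were lower in 17, Hoxa5 in 14 and Hoxa6 in 13.

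Hoxa7 was lower in distal tissue by more than Hoxa2, Hoxa3, Hoxa5 and Hoxa6 were. The log2 ratio of Hoxa7 to Hoxa5 within a library was -0.25 in distal and 0.37 in proximal tissue on average, a difference of -0.61 ± 0.38 (SD over 18 embryos), lower in the distal library in 17 of 18. The ratio to Hoxa3 moved by -0.59 ± 0.30 (16 of 18 embryos), that to Hoxa6 by -0.62 ± 0.50 (15 of 18) and that to Hoxa2 by -0.40 ± 0.50 (14 of 18). Exact permutation tests that swapped the tissues within embryos, two-sided and adjusted over all 15 pairs of members, gave p = 0.000229 for Hoxa5 and for Hoxa3, 0.00145 for Hoxa6 and 0.0188 for Hoxa2. The ratio of Hoxa7 to Hoxa4 moved by -0.28 ± 0.61 (exact permutation adjusted p = 0.108). Among the other 10 pairs, that of Hoxa5 to Hoxa2 rose by 0.22 ± 0.34 in distal tissue (exact permutation adjusted p = 0.0305) and 9 did not pass. The scaling between libraries enters these ratios only through the 0.1 added to each CPM. That offset weighs most on Hoxa4, which had the lowest values.

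The tissues also differed in their makeup. The summed level of 25 skeletal muscle genes ran from 28.0 to 196 CPM in distal and from 2435 to 4463 CPM in proximal libraries, and Pax7 and Myod1 had medians of 0.177 and 4.71 CPM against 20.5 and 90.3 CPM. Pax7 had no count in some distal libraries. Nerve and Schwann cell genes summed to 139 to 201 against 319 to 378 CPM. Cartilage genes summed to 2200 to 4102 against 4252 to 8262 CPM, and tendon and connective tissue genes to 3045 to 4898 against 6729 to 11519 CPM. The part of these cells in the tissue difference of the anterior HoxA genes was not tested. In proximal libraries, where muscle is present, Hoxa7 was lower where the muscle score was higher (r = -0.64, rho = -0.58, permutation p adjusted over 78 relations 0.0168 and 0.05, r = -0.57 without the 2 libraries farthest on that score). Hoxa6 gave r = -0.63 and rho = -0.60 (permutation adjusted p = 0.019 and 0.0455). In distal libraries Hoxa4 gave r = -0.63 and rho = -0.57 with the same score (permutation adjusted p = 0.0202 and 0.0542, r = -0.51 without the 2 farthest libraries).

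Other genes of the Hox system were lower in distal tissue too. Of 11 paralogues of the members in the HoxB, HoxC and HoxD clusters, 8 could be tested in WT, and 6 were called lower and 0 higher by edgeR (median log2 -1.31), where 17.1% of all genes were called lower. They include Hoxd3 (-3.13 ± 0.39), Hoxd4 (-2.15 ± 0.30), Hoxb3 (-1.85 ± 0.33) and Hoxc6 (-1.30 ± 0.28). The DNA-binding cofactors of the TALE class gave 5 called lower and 0 higher of 9 (median -0.76), among them Meis1 (-1.39 ± 0.19), Meis2 (-0.95 ± 0.11) and Pbx3 (-0.87 ± 0.08). Within the HoxA cluster, Hoxa10 (-0.70 ± 0.09) and Hoxa11 (-2.35 ± 0.40) were lower and Hoxa13 (2.52 ± 0.44) and Evx1 (3.99 ± 0.57) higher in distal WT tissue. Hoxa9, the neighbour of Hoxa7, was not called in WT (-0.01 ± 0.06, edgeR adjusted p = 0.919), Del(CBS1) (-0.08) or Del(CBS1-3) (0.09). It was called lower in distal tissue in Del(CBS1-2) (-0.15), Del(CBS1-4) (-0.38) and Del(CBS1-5) (-0.21). Over all 36 libraries Hoxa9 was also called lower (-0.12 ± 0.03, edgeR adjusted p = 0.00262). Of the antisense genes that overlap members, Hoxaas3, which shares exonic bases with Hoxa3 and Hoxa7, was called over all 36 libraries (log2 -0.44 ± 0.18, edgeR adjusted p = 0.0337). In that fit of 36 libraries 68.6% of 16292 genes were called, 34.2% as lower.

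No allele changed a member past the threshold in either tissue. In distal tissue, edgeR called 0 of 30 comparisons of a member with WT, with 2 at an unadjusted p under 0.05, and DESeq2 and limma on FPKM called 0. In proximal tissue, edgeR called 0 of 30, with 4 at an unadjusted p under 0.05, and DESeq2 and limma again called 0. An unadjusted edgeR p under 0.05 was found for 1488 to 4085 of all 15361 genes with an allele in distal tissue. In proximal tissue it was found for 1025 to 3084 of 15813 genes. The share of all genes called by edgeR was low in most of these comparisons. Of 15361 genes in distal tissue it was 0.0325% for Del(CBS1), 10.5% for Del(CBS1-2), 0.00651% for Del(CBS1-3), 0.0846% for Del(CBS1-4) and 0.0651% for Del(CBS1-5). In proximal tissue it was 0.0443%, 0.721%, 0.0696%, 0% and 0.0696% of 15813 genes in the same order (at 0%, 2229 genes had an unadjusted p under 0.05). The size of change that the libraries allow differs by gene. The 95% intervals for Hoxa7 reached from -0.46 to 0.55 in distal and from -0.42 to 0.51 on the log2 scale in proximal tissue over the 5 alleles. Those for Hoxa3 reached from -0.45 to 0.55 and from -0.72 to 0.43. For Hoxa4 they reached from -1.21 to 0.89 and from -0.97 to 1.18, so larger changes of that gene lie within them than of Hoxa7. These comparisons share the WT libraries of a tissue.

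**Figure D3:**
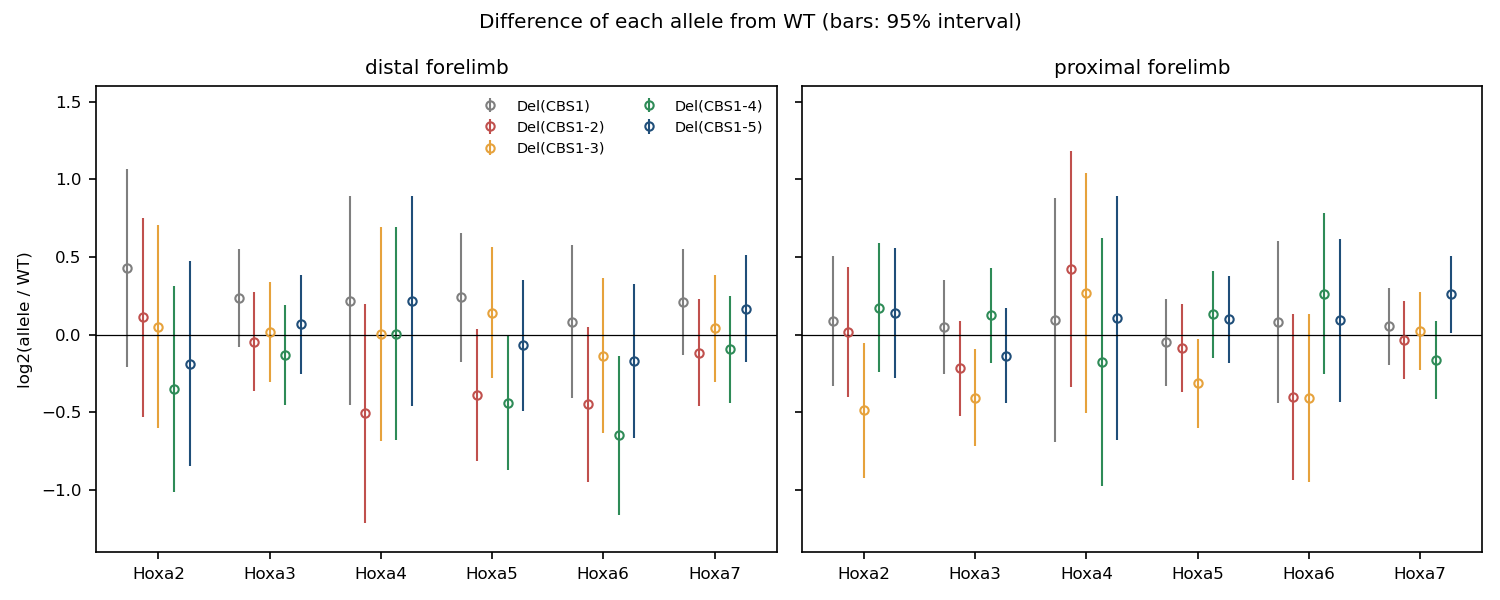
Log2 difference of each of 5 alleles from WT (y axis) for each member (x axis), in distal tissue on the left and proximal tissue on the right, with 95% intervals from edgeR. The values run from -0.65 to 0.43 in distal and from -0.48 to 0.42 in proximal tissue, and none passed the adjusted threshold.

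The comparisons with WT at an unadjusted p under 0.05 are given here. Larger differences at a higher p include distal Hoxa4 in Del(CBS1-2), at -0.51 on the log2 scale. Hoxa6 in distal tissue had 3.00, 3.53 and 2.93 CPM in Del(CBS1-4) and 5.33, 4.26 and 5.13 CPM in WT. All 3 mutant values lay below WT, as for 7.57% of all genes in that comparison (0.0846% were called; log2 -0.65, 95% interval -1.16 to -0.14, edgeR adjusted p = 0.208). Hoxa5 in the same libraries had 9.21, 8.55 and 10.9 CPM against 14.5, 9.92 and 14.1 CPM, which overlap (log2 -0.44, edgeR adjusted p = 0.318). Hoxa11, the forearm gene, ran from 9.47 to 18.7 CPM in these distal Del(CBS1-4) libraries, against 52.4, 11.3 and 37.4 CPM in distal WT, and its part in the values of Hoxa5 and Hoxa6 was not tested. In proximal tissue Hoxa3 had 15.5, 14.4 and 17.1 CPM in Del(CBS1-3), all below the WT values of 18.3, 25.5 and 18.5 CPM, as for 8.66% of all genes (log2 -0.40, 95% interval -0.72 to -0.09, edgeR adjusted p = 0.252). Hoxa2 and Hoxa5 were at -0.48 and -0.31 there (edgeR adjusted p = 0.329 and 0.340). Hoxa13, the hand gene, was at 10.2, 9.24 and 10.4 CPM in these proximal Del(CBS1-3) libraries, against 13.6, 58.3 and 16.8 CPM in proximal WT, and its part in these values was likewise not tested. Proximal Hoxa7 in Del(CBS1-5), at 22.97, 23.2 and 23.3 CPM, lay above the 3 WT libraries (11% of all genes did not overlap in that comparison; log2 0.26, 95% interval 0.01 to 0.51, edgeR adjusted p = 0.763).

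The tissue difference was not shown to depend on the allele. In a fit of all 36 libraries, edgeR called 0 of 30 interactions of tissue and allele for the members, with 2 at an unadjusted p under 0.05, and DESeq2 and limma called 0. Those 2 were Hoxa6 (log2 -0.91, 95% interval -1.64 to -0.18) and Hoxa5 (-0.57, -1.09 to -0.05) in Del(CBS1-4). For that allele 995 of all 16292 genes had an unadjusted edgeR p under 0.05. Of all 16292 genes, 0.0491% were called for Del(CBS1-2), 0.0184% for Del(CBS1-4), 0.00614% for Del(CBS1-3) and 0% for Del(CBS1) and Del(CBS1-5), where 345 and 966 genes had an unadjusted p under 0.05. Among the coding HoxA genes and Evx1, the 1 call against WT was Hoxa9 in distal Del(CBS1-2) tissue, lower than WT (-0.35 ± 0.08, edgeR adjusted p = 0.0121). Skeletal muscle genes summed to 102 to 196 CPM in those distal libraries and to 51.7 to 52.6 CPM in distal WT, and their part in that difference was not tested.

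Some members, but not Hoxa4, varied together with Hoxa13 in proximal libraries or Hoxa11 in distal libraries, and with Hoxa9. Hoxa13 and Hoxa11 mark limb segments. No member passed with Hoxa11 in proximal libraries (r from -0.29 to 0.30) or with Hoxa13 in distal libraries (r from -0.43 to 0.01). Hoxa13 ranged widely over the 18 proximal libraries, from 9.24 to 61.5 CPM with a median of 22.1 CPM. WT 2 had 58.3 CPM, Del(CBS1-4) 1 and 2 had 61.5 and 46.0 CPM, and the 3 Del(CBS1-3) libraries had the lowest values. The distal gene Msx1 was likewise high in WT 2 (62.7 CPM) and in Del(CBS1-4) 1 and 2 (55.1 and 37.6 CPM). Hoxa3 had its highest proximal values in the same libraries, 28.0 CPM in Del(CBS1-4) 1 and 25.5 CPM in WT 2. Over the 18 libraries log2 Hoxa3 rose with log2 Hoxa13 (r = 0.868, rho = 0.862, permutation p adjusted over 78 relations 0.00078 and 0.00156). The relation held without the 2 libraries farthest on Hoxa13 (r = 0.785) and after subtracting genotype means (r = 0.862). Hoxa5 gave r = 0.657 and rho = 0.562 (permutation adjusted p = 0.0155 and 0.0602), Hoxa2 0.616 and 0.531 (0.0206 and 0.0736) and Hoxa6 0.577 and 0.534 (0.038 and 0.0736), and these fell to 0.481, 0.524 and 0.367 without the 2 farthest libraries. After subtracting genotype means they were 0.547, 0.298 and 0.560. Hoxa7 did not vary with Hoxa13 past the threshold (r = -0.07, permutation adjusted p = 0.858), nor did Hoxa4 (r = 0.04, permutation adjusted p = 0.939). With Hoxa9, proximal r was 0.800 for Hoxa5, 0.791 for Hoxa3, 0.763 for Hoxa6 and 0.727 for Hoxa2 (permutation adjusted p = 0.00078, 0.00156, 0.00234 and 0.00425). Without the 2 libraries farthest on Hoxa9 these were 0.678, 0.614, 0.716 and 0.459. Hoxa7 (r = 0.02) and Hoxa4 (r = -0.24) did not pass with Hoxa9. In distal libraries only Hoxa6 passed with it (r = 0.563, permutation adjusted p = 0.0483).

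**Figure D4:**
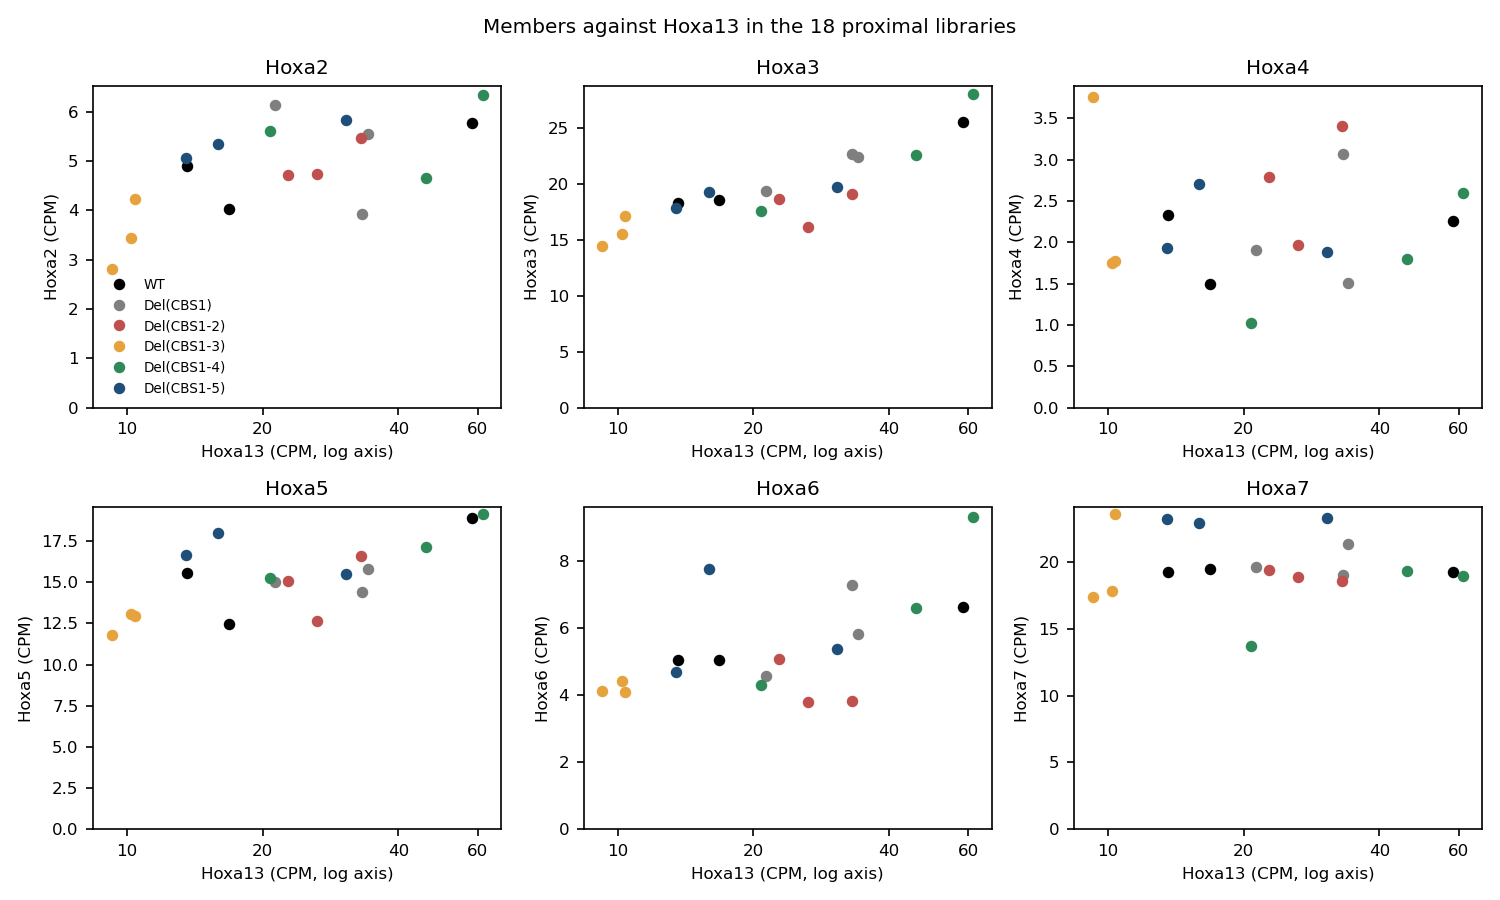
Level of each member (y axis, CPM from 0) against Hoxa13 (x axis, CPM on a log axis) in the 18 proximal libraries, coloured by genotype. Hoxa3 rises across the range of Hoxa13 (r = 0.868 on log2 values), while Hoxa7 shows no such rise (r = -0.07).

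In distal libraries the corresponding gene is Hoxa11, which ran from 9.47 to 66.1 CPM with a median of 29.1 CPM and was taken up after its values were seen. Hoxa5 rose with it (r = 0.821, rho = 0.872, permutation adjusted p = 0.000975 and 0.00156, r = 0.768 without the 2 farthest libraries and 0.722 within genotypes). So did Hoxa7 (r = 0.735, rho = 0.738, permutation adjusted p = 0.00425 and 0.00947, 0.634 and 0.728 in the same checks) and Hoxa3 (r = 0.700, rho = 0.713, permutation adjusted p = 0.00559 and 0.00979, 0.669 and 0.699). Hoxa6 gave r = 0.593 and rho = 0.653 (permutation adjusted p = 0.0322 and 0.0219), which fell to 0.310 within genotypes. Hoxa2 (r = 0.260) and Hoxa4 (r = 0.338) did not pass. Del(CBS1-4), the line in which 5 members were called between the tissues, had distal Hoxa11 of 9.47 to 18.7 CPM and proximal Hoxa13 of 20.8 to 61.5 CPM. Del(CBS1-3), in which 1 member was called, had distal Hoxa11 of 36.7 to 55.4 CPM and proximal Hoxa13 of 9.24 to 10.4 CPM. Del(CBS1-5), with 4 members called, had distal Hoxa11 of 25.2 to 49.5 CPM and proximal Hoxa13 of 13.5 to 30.7 CPM. Del(CBS1-2), also with 4, had 14.7 to 26.6 and 22.8 to 33.1 CPM. For Del(CBS1), with 1, the ranges were 28.4 to 66.1 and 21.3 to 34.2 CPM. In WT, with 2, they were 11.3 to 52.4 and 13.6 to 58.3 CPM. The part of this variation in the tissue differences was not tested.

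Members also varied with each other. Of the 15 pairs, 5 passed in each tissue (permutation adjusted p of Pearson's r). In proximal tissue the highest was Hoxa3 with Hoxa6 (r = 0.823, rho = 0.810, permutation adjusted p = 0.000975 and 0.00364, r = 0.839 without the 2 farthest libraries), and in distal tissue Hoxa5 with Hoxa7 (r = 0.767, rho = 0.769, permutation adjusted p = 0.00234 and 0.00643, r = 0.663 without them). Hoxa7 was in 2 of the 5 distal pairs and in 0 of the 5 proximal ones, and Hoxa4 was in none. Whether the correlations differ between the tissues was not tested. Over all named genes, those most like Hoxa3 in the 18 proximal libraries were the antisense transcript Hoxa11os (r = 0.936), the hedgehog transcription factor Gli2 (0.918) and Msx1 (0.896). The gene most like Hoxa5 in distal libraries was Hoxa10 (0.892), followed by Ralgps2 (0.868) and Lrrc56 (0.863). For Hoxa7 they were Tstd3 (0.838), Olfml2a (0.813) and Tgm2 (0.809) in distal and Gstm7 (0.851), Smox (0.840) and Tcf12 (0.822) in proximal libraries. For Hoxa4, with its low counts, the highest were Mdm1 in distal (0.836) and Tmem179b in proximal tissue (0.762). These last values are the top of a ranking over all genes, in libraries that share tissue and dissection, and are given as a description.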

How the data were processed

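Poly(A) RNA from micro-dissected forelimbs was made into strand-specific libraries and read as single ends of 50 bases, per the labels' protocols. Per the file headers, the authors deposited raw gene counts (whole numbers, Ensembl IDs) and FPKM values from Cufflinks for all 36 libraries, with 0 columns left without a sample. Tools listed in the submitters' processing notes, with no role stated, are STAR 2.7.0, bedtools 2.27.1, cutadapt 1.16 and Cufflinks 2.2.1, on mm10. How reads were counted is not given there. Counts cover 50833 genes, 0 of them on X, Y or M, and FPKM values cover 55052.

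Members and all gene lists were chosen with earlier results of these data known. The 6 members are named in every comparison, other genes only by a rule of at most 4 called genes per list and comparison, smallest p first, and likeness by the top 3 named genes. Of 221 listed genes in 17 lists, 1 was absent from the files.

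Counts were tested with edgeR 4.0.16 in R 4.3.3 (quasi-likelihood test, TMM scaling, filterByExpr), and p-values were adjusted by Benjamini-Hochberg over all genes tested, with a call at an adjusted p under 0.05. The tissues were compared in the 6 libraries of a genotype, alleles with WT in the 18 libraries of a tissue, and interactions in all 36. Correlations and likeness used log2 CPM with a prior count of 2 over the 18 libraries of a tissue, and the correlations 100000 permutations. Ratios of members and differences by embryo used log2(CPM + 0.1). Hoxa11 was added to the correlations after its values were seen. Alternatives were RLE scaling, no count filter, DESeq2 1.42.0, limma 3.58.1 on log2(FPKM + 1), a replicate block and each library left out. The fits were tested on simulated data. Replicates differed beyond counting noise (chi-square per degree of freedom 2.66 to 21.2). Library totals of 11062069 to 17727891 counts limit precision most for Hoxa4.

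Replicate numbers come from the titles. Between tissues, same-numbered libraries deviated together (r = 0.161 to 0.502 in the 6 genotypes, against -0.311 to 0.013 for other numbers). Same-numbered libraries were therefore taken as pairs in the replicate block, the ratios of members and the counts by embryo. The main edgeR fits did not pair them, so their SE and p-values leave the pairing out. p-values measure the spread between embryos' libraries.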

Additional observations from a re-analysis of the deposited data

How the results depend on the processing

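Most values kept their direction and their side of the threshold. With limma on FPKM, 1 member was called between the tissues in WT in place of 2, and with no count filter 2 were called in Del(CBS1) in place of 1. Leaving out 1 library gave 1 called member in WT each time, 1 to 2 in Del(CBS1), 3 to 4 in Del(CBS1-2) and 2 to 3 in Del(CBS1-5). Tissue differences near 0 changed sign: Hoxa5 in Del(CBS1), at 0.0014 with all libraries, went to -0.0098 with the replicate block and ran from -0.19 to 0.11 with 1 library left out. In Del(CBS1-3), with 1 library left out, Hoxa2 (-0.03 with all) ran from -0.34 to 0.20, Hoxa3 (-0.07) from -0.19 to 0.00245 and Hoxa6 (0.08) from -0.23 to 0.23. The cause was not tested. Hoxa7 kept its call between the tissues in every genotype under every alternative run. Comparisons with WT and interactions gave 0 called members in all of them.

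Beyond the 2 calls given in the report, the replicate block between tissues changed no other call of a member. Between an allele and WT the numbers share no more than a number: same-numbered libraries correlated at -0.158 to 0.297 and others at -0.224 to 0.141, 10 of 30 mutant libraries were closest to the WT library of their own number, and the block left the count of called members at 0. Low counts limit Hoxa4, Hoxa2 and Hoxa6 most.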

Other observations

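Retinoic acid and the Polycomb proteins are known to act on Hox clusters, and both lists differed between the tissues in WT. Of 16 tested genes of retinoic acid synthesis, breakdown and reception, 8 were called higher and 4 lower in distal tissue. Cyp26b1 and Cyp26a1, which break retinoic acid down, were higher (log2 1.37 ± 0.08 and 2.62 ± 0.28), as was Aldh1a2, which makes it (2.39 ± 0.18), and the binding protein Crabp1 was lower (-1.11 ± 0.12). Of 17 Polycomb genes, 6 were called higher and 2 lower, with the core subunits Ezh2 at 0.48 ± 0.06 and Suz12 at 0.45 ± 0.07, Cbx2 at 0.31 ± 0.06 and the accessory subunit Jarid2 at -0.56 ± 0.05 (SE, edgeR). Of all 14918 genes tested, 2024 were called higher and 2554 lower.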
